A study of Solanum tuberosum with 36 samples.

Results

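The late drought response of the potato cultivar Gwiazda was described by comparing leaves taken after 10 days without watering with leaves taken on day 0, before watering was stopped. The comparison used 6 of the 36 samples of the series, 3 from day 10 and 3 from day 0, and covered all 25289 genes listed in the deposited tables. Gwiazda is a cultivar that tolerates drought well, and the series also holds Tajfun, the other tolerant cultivar, and the sensitive cultivars Oberon and Owacja, all sampled on days 0, 6 and 10. Every sample was a leaf RNA library from a plant grown in a pot, and watering was withheld once tuber formation had begun. Oberon shares 1 parent with Gwiazda and is used here as the sensitive counterpart. The experiment also kept watered control plants, but none of them is among the day 10 samples analysed here, so lack of water and the 10 days that passed cannot be told apart in this comparison. The gene identifiers of the files are not paired with names in the files or in the reference table used here, where 0 of 25289 identifiers were found. Names taken from the study were available for 33 genes. The leaf origin of the libraries was not checked against marker genes.

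Plants that lose water accumulate abscisic acid, a hormone that closes the stomata and switches on a large set of genes. Among the best known of these are dehydrins and other late embryogenesis abundant proteins, hydrophilic proteins that accumulate in drying seeds and in stressed leaves. Small heat-shock proteins, kinases of stress signalling and enzymes that break down amino acids are further classes often studied in drought. In bulk leaf RNA, fewer cells of a type and less RNA per cell cannot be told apart.

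The deposited tables hold only the mean of each group, scaled separately in each table. As each group's mean stands in 3 tables with different scaling, the whole reads of each single library could be solved from the 3 means, and this succeeded for all 25289 genes in 35 libraries. The libraries solved in this way carry no plant number and are called a, b and c within a day, in order of falling total reads. Totals ranged from 39333147 to 40629540 reads on day 10 and from 38689138 to 39974973 reads on day 0. A read was found for 20228 to 20917 genes in the day 10 libraries and for 20486 to 21432 genes in the day 0 libraries. Values below are normalized reads, which are the reads of a library divided by its size factor, a scaling by the median ratio to the other libraries of the comparison. On day 0, library b stood farthest from the other libraries of its day, with a median distance of 0.45 on the log2 scale, against 0.30 and 0.35 for libraries a and c. On day 10 the same distances were 0.26, 0.33 and 0.32 for libraries a, b and c.

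The response on day 10 involved a large share of the leaf transcriptome. Of the 19161 genes with a mean of at least 10 normalized reads, 3834 rose and 4413 fell at an adjusted p below 0.05 (limma, Benjamini-Hochberg adjustment over all genes tested), which is 20% and 23% of the genes tested and 43.0% together. The values of the days did not overlap for 55.2% of the genes tested, with 26.4% higher and 28.8% lower on day 10. In 14.5% of the genes tested the rise was also at least 2-fold, and in 19.0% the fall was. The median log2 change was 1.43 for the genes that rose, while the genes that fell had a median size of 1.87 on the same scale. Changes over 4 on the log2 scale were found for 469 genes that rose and for 759 genes that fell. The median change of all genes tested was -0.01, and scaling to total reads moved it to -0.04. Leaving out 1 library gave between 2889 and 4007 genes that rose and between 3475 and 4395 that fell. Without day 0 library b, 4007 genes rose and 4395 fell.

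**Figure D1:**
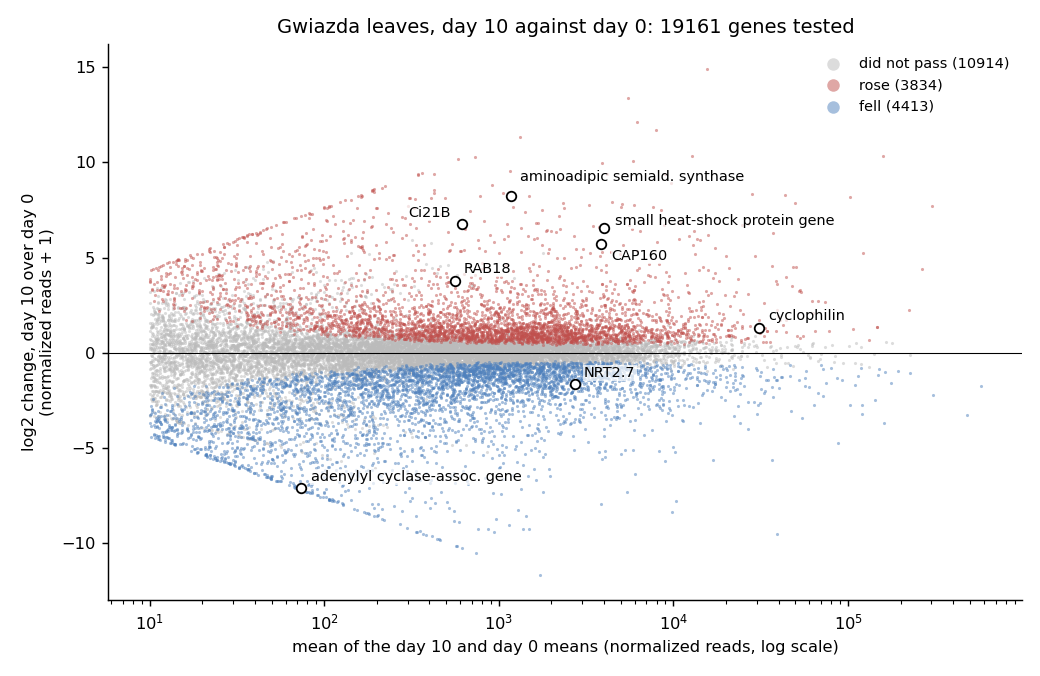
Each point is 1 of 19161 genes, placed by the mean of its day 10 and day 0 means (horizontal axis, normalized reads, log scale) and by its log2 change of day 10 over day 0 (vertical axis, normalized reads plus 1). Red genes rose (3834), blue genes fell (4413) and grey genes did not pass the test (10914); open circles mark 8 named genes, and the slanted lower and upper edges hold genes with no reads on 1 of the days.

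Genes that rose and genes that fell each held a large share of the reads on 1 of the days. Genes that rose held 45.8%, 45.6% and 47.6% of all reads in the day 10 libraries, against 14.5%, 14.4% and 14.5% in the day 0 libraries. Genes that fell held 15.4%, 14.6% and 14.0% of the reads on day 10, against 46.2%, 46.0% and 47.2% on day 0. These shares describe genes chosen by the same test and carry no test of their own. Among the 598 genes with a mean over 10000 normalized reads, 37.6% rose and 26.9% fell. Among the 5150 genes with means of 10 to 100 normalized reads, 11.2% rose and 19.8% fell. Rises thus outnumbered falls among abundant genes, and falls outnumbered rises among scarce ones. Of the 100 genes with most reads on day 10, 51 rose, 18 fell and 31 did not pass the test. Of the 100 genes with most reads on day 0, 6 rose, 59 fell and 35 did not pass. Ranking by the reads of 1 day favours genes that were higher on that day, so these counts are a description. Among all genes tested, 20% rose and 23% fell.

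The gene with most reads on day 10 was not the one with most reads on day 0. Gene length was not considered in this ranking, and neither gene has a name. The leading gene of day 10 had 526016, 437704 and 845162 normalized reads on day 10, against 2552, 2623 and 3027 on day 0. It thus held 1.34%, 1.06% and 2.21% of all reads in the day 10 libraries and ranked 2595th on day 0. Its log2 change was 7.73 ± 0.26 (SE, adjusted p = 2.3e-06, limma), with no overlap between the days. The leading gene of day 0 had 310824, 275996 and 218724 normalized reads on day 10, against 765961, 878695 and 1010890 on day 0. It fell by 1.73 ± 0.30 on the log2 scale (SE, adjusted p = 0.0023, limma) and was the 5th gene by reads on day 10.

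Some genes were read on 1 of the days only. Among the genes tested, 146 had no reads in any of the 3 day 0 libraries and 306 had none in any of the 3 day 10 libraries. Their levels were set against the level that 3 reads over the group would give. All 146 were then at least 10-fold higher on day 10 and all 306 at least 10-fold lower. The minimum mean of 10 normalized reads fixed this in advance, as these genes reached it only through the day with reads. The test was passed by 112 of the 146 genes and by 216 of the 306 genes. These counts are a description, as the same minimum let the genes in only through the day with reads. They cannot be set against the shares of all genes tested that rose or fell. Of the unnamed genes with reads on both days and no overlap between them, PGSC0003DMG400009255 and PGSC0003DMG400024476 rose most. PGSC0003DMG400009255 had 11327, 7662 and 17923 normalized reads on day 10, against 0, 0 and 17.3 on day 0, a log2 change of 12.10 ± 1.05 (SE, adjusted p = 8.4e-05, limma). PGSC0003DMG400024476 had 13993, 10128 and 23531 normalized reads on day 10, against 5.61, 0 and 13.0 on day 0, a log2 change of 11.69 ± 0.87 (SE, adjusted p = 4.2e-05, limma). Both genes were thus near or at 0 before drought, and their day 10 libraries differed by more than 2-fold. Among the unnamed genes with reads on both days, the deepest falls were those of PGSC0003DMG400030212 and PGSC0003DMG400013680. PGSC0003DMG400030212 had 147, 77.5 and 97.0 normalized reads on day 10, against 59969, 106078 and 67260 on day 0, a 725-fold higher mean on day 0 (log2 change -9.49 ± 0.29, SE, adjusted p = 1.9e-06, limma). PGSC0003DMG400013680 had 0, 16.8 and 0 normalized reads on day 10, against 2827, 1366 and 1406 on day 0 (log2 change -9.40 ± 1.06, SE, adjusted p = 0.00030, limma).

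The named genes came from the study itself. They comprise RAB18, which the study used as a molecular marker of drought, cyclophilin, which served as the internal control of its RT-PCR, 23 genes followed up after selection in Gwiazda or in Tajfun, and 8 genes chosen as stable. The primer pairs for 5 of them are shown in lower case from 5′ to 3′, as they identify the transcripts on which the account turns: the drought marker, the RT-PCR control, the strongest riser among the genes selected in Gwiazda, the gene selected in both tolerant cultivars and the gene with no reads left on day 10.
RAB18 (PGSC0003DMG400003531), one primer: gtaatctgaggatgatgg
RAB18, the other primer: gggagcttctctttgatctt
Cyclophilin (PGSC0003DMG400001630), forward: ctcttcgccgataccactcc
Cyclophilin, reverse: tcacacggtggaaggttgag
Aminoadipic semialdehyde synthase (PGSC0003DMG401015935), forward: gtagccacctgccaagacat
Aminoadipic semialdehyde synthase, reverse: gatgcctctttcgcaaactc
CAP160 (PGSC0003DMG400014293), forward: ccgaaactcgcgaaactaag
CAP160, reverse: aaaccggagcaagttttcctg
Adenylyl cyclase-associated protein gene (PGSC0003DMG400000723), forward: ctgtcgaaagctccttcacc
Adenylyl cyclase-associated protein gene, reverse: taggagctgagccctgacat

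RAB18, a dehydrin gene that responds to abscisic acid, was clearly higher after 10 days without water. It had 840, 930 and 1319 normalized reads on day 10, against 76.6, 32.1 and 151 on day 0. The lowest library of day 10 was above the highest of day 0, and the log2 change was 3.79 ± 0.52 (SE, n = 3 libraries on each day, adjusted p = 7.4e-04, limma), an 11.9-fold higher mean. RAB18 had been followed by the study when it set the sampling days, so its rise is not independent evidence of the drought response.

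CAP160, an embryogenesis abundant protein gene, Ci21B, a heat-shock protein gene and ST225 rose as well, beside 20% of all genes tested. All of them were genes that the study had selected, CAP160 in both Gwiazda and Tajfun and the others in Tajfun only. CAP160, whose homologue in Arabidopsis is the low-temperature-induced gene LTI65, had 7285, 6740 and 8452 normalized reads on day 10, against 87.9, 77.4 and 391 on day 0. Its log2 change was 5.74 ± 0.55 (SE, adjusted p = 1.4e-04, limma), although 1 library of day 0 was well above the others of that day. An embryogenesis abundant protein gene (PGSC0003DMG400008497), of the late embryogenesis abundant class, had 83.2, 69.1 and 87.3 normalized reads on day 10, against 3.74, 1.89 and 17.3 on day 0 (log2 change 3.68 ± 0.74, SE, adjusted p = 0.0050, limma). The days did not overlap in any of these genes, but the day 0 values differed several-fold between libraries. Ci21B (PGSC0003DMG400024093), a gene named for its induction by cold, had 1037, 957 and 1675 normalized reads on day 10, against 5.61, 11.3 and 15.1 on day 0. Its log2 change was 6.76 ± 0.42 (SE, adjusted p = 2.0e-05, limma), a 114-fold higher mean. A gene of a low molecular weight heat-shock protein (PGSC0003DMG400039484), a chaperone that keeps unfolding proteins from clumping, had 7347, 6516 and 9919 normalized reads on day 10, against 144, 39.6 and 101 on day 0 (log2 change 6.53 ± 0.44, SE, adjusted p = 2.7e-05, limma). Ci21B and the heat-shock gene had the smallest adjusted p among the 33 named genes. ST225 (PGSC0003DMG400003688) had 226, 442 and 687 normalized reads on day 10, against 86.0, 32.1 and 119 on day 0, and rose by 2.55 ± 0.57 on the log2 scale (SE, adjusted p = 0.0079, limma).

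**Figure D2:**
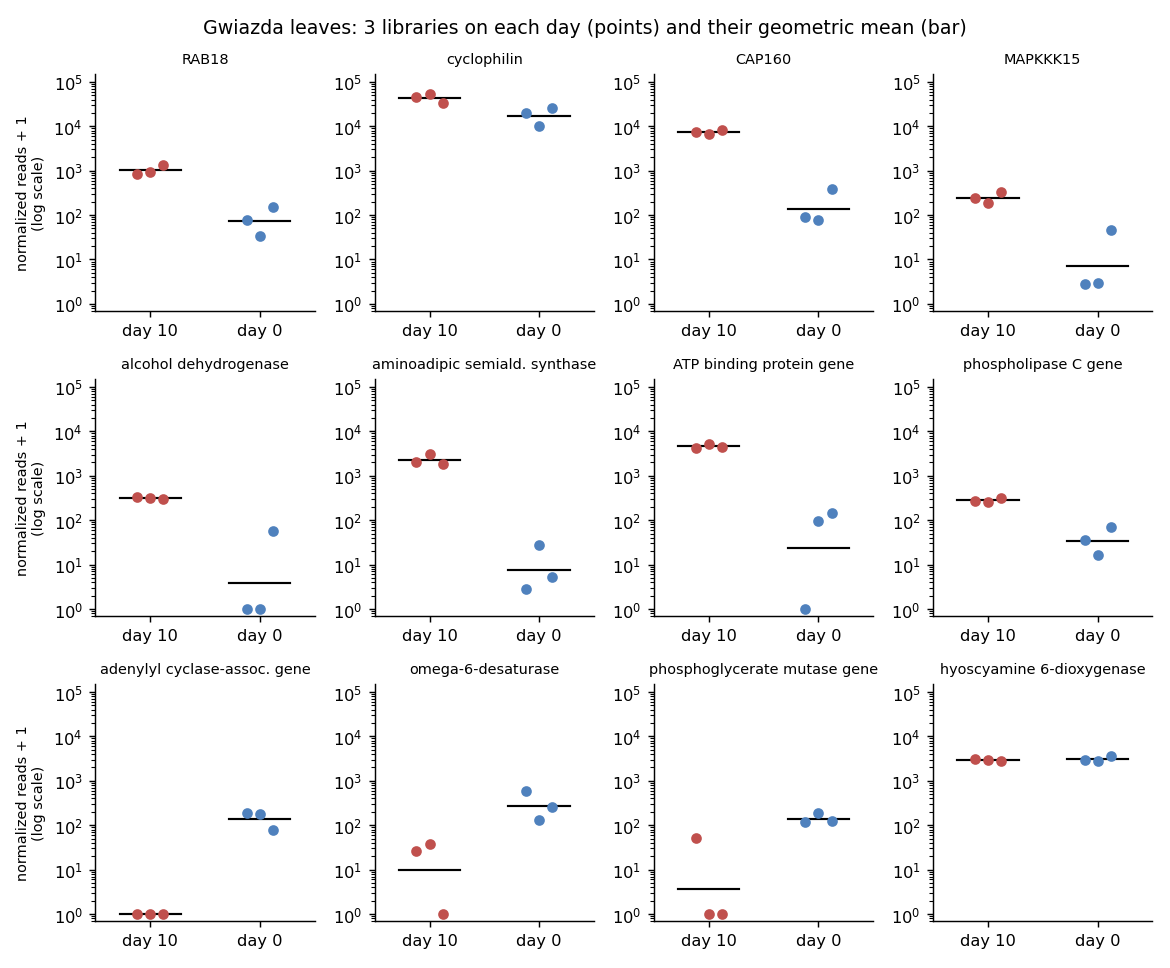
Each panel shows 1 gene in the 3 Gwiazda libraries of day 10 (red) and of day 0 (blue) as normalized reads plus 1 on a log scale, with the geometric mean as a bar. RAB18, CAP160, MAPKKK15, alcohol dehydrogenase and aminoadipic semialdehyde synthase were higher in every day 10 library than in any day 0 library, the adenylyl cyclase-associated protein gene had 0 reads in all 3 day 10 libraries, and the values of hyoscyamine 6-dioxygenase, a gene chosen as stable, overlapped.

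MAPKKK15, a phospholipase C gene, an ATP binding protein gene and a calcium ion binding protein gene also rose. The study had selected MAPKKK15, the phospholipase C gene and the ATP binding protein gene in Gwiazda. It had selected the calcium ion binding protein gene in Tajfun, and it lists that gene as down-regulated in drought, the opposite direction. MAPKKK15 (PGSC0003DMG400015019), a kinase at the head of a mitogen-activated protein kinase cascade, had 238, 189 and 338 normalized reads on day 10, against 1.87, 1.89 and 45.3 on day 0. Day 0 libraries a and b were near 0 and library c was not, and the log2 change was 5.10 ± 1.04 (SE, adjusted p = 0.0052, limma). A phospholipase C gene (PGSC0003DMG400001621), of the enzymes that release second messengers from membrane lipids, had 273, 254 and 320 normalized reads on day 10, against 35.5, 15.1 and 69.1 on day 0 (log2 change 3.03 ± 0.53, SE, adjusted p = 0.0024, limma). An ATP binding protein gene (PGSC0003DMG400012174) had 4214, 5076 and 4550 normalized reads on day 10, against 0, 94.4 and 143 on day 0 (log2 change 7.59 ± 1.64, SE, adjusted p = 0.0069, limma). The large error of this gene came with the value of 0 in day 0 library a, and without that library the change was 5.29. A calcium ion binding protein gene (PGSC0003DMG400007427) had 1145, 1183 and 1465 normalized reads on day 10, against 783, 729 and 826 on day 0. It rose by 0.69 ± 0.18 on the log2 scale (SE, adjusted p = 0.015, limma), the smallest rise among the named genes that passed the test.

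Aminoadipic semialdehyde synthase, alcohol dehydrogenase and a cytochrome P450 gene rose, while SCPL19, a desaturase gene and a phosphoglycerate mutase gene fell. Aminoadipic semialdehyde synthase, which carries out the first steps of lysine breakdown, showed the largest rise of the named genes, with 2066, 3122 and 1832 normalized reads on day 10, against 1.87, 26.4 and 4.32 on day 0. Its log2 change was 8.25 ± 0.75 (SE, adjusted p = 1.1e-04, limma), a 215-fold higher mean. Alcohol dehydrogenase (PGSC0003DMG400024849), the enzyme that ends ethanolic fermentation, had 337, 312 and 293 normalized reads on day 10, against 0, 0 and 56.1 on day 0 (log2 change 6.35 ± 1.44, SE, adjusted p = 0.0085, limma). For this gene the reads of day 0 lay in library c only. A cytochrome P450 gene (PGSC0003DMG400014954) had 528, 683 and 766 normalized reads on day 10, against 282, 245 and 220 on day 0, and rose by 1.39 ± 0.23 on the log2 scale (SE, adjusted p = 0.0019, limma). SCPL19 (PGSC0003DMG400008018), of the serine carboxypeptidase-like family, had 1343, 911 and 1801 normalized reads on day 10, against 3485, 2885 and 3588 on day 0 (log2 change -1.34 ± 0.26, SE, adjusted p = 0.0037, limma). The gene listed by the study as a microsomal omega-6-desaturase (PGSC0003DMG400002943), an enzyme class that adds double bonds to fatty acids, had 25.2, 37.7 and 0 normalized reads on day 10, against 587, 128 and 255 on day 0 (log2 change -4.74 ± 1.32, SE, adjusted p = 0.021, limma). A phosphoglycerate mutase gene (PGSC0003DMG400020629), named for an enzyme of glycolysis, had 50.3, 0 and 0 normalized reads on day 10, against 120, 187 and 123 on day 0 (log2 change -5.25 ± 1.43, SE, adjusted p = 0.019, limma). The falls of the desaturase and mutase genes depended on single libraries. The desaturase gene no longer passed without day 0 library a (adjusted p = 0.076) or c (adjusted p = 0.057), and the mutase gene missed the threshold without any of the 6 libraries except day 10 library a (adjusted p up to 0.067, limma).

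The adenylyl cyclase-associated protein gene, whose homologues regulate the actin cytoskeleton, was the only named gene without a read on day 10. It had 0 normalized reads in all 3 day 10 libraries, against 189, 179 and 75.6 on day 0. The loss was complete by day 6, as the gene had no reads in any Gwiazda library of that day either. Its mean was at least 149-fold lower on day 10 when set against 3 reads over the group, and the fall passed the test (adjusted p = 1.3e-04, limma). A DEAD box RNA helicase gene (PGSC0003DMG400001771), of the enzymes that unwind RNA, had 228, 182 and 293 normalized reads on day 10, against 0, 77.4 and 0 on day 0. Its log2 change of 5.76 ± 1.55 (SE, adjusted p = 0.018, limma) rested on few libraries, as it passed only without day 0 library b, and without each of the other 5 in turn the adjusted p lay between 0.052 and 0.063. NRT2.7 (PGSC0003DMG400006913), named after a nitrate transporter of Arabidopsis, had 1207, 1559 and 1203 normalized reads on day 10, against 3758, 3516 and 5139 on day 0 (log2 change -1.63 ± 0.20, SE, adjusted p = 4.8e-04, limma). A ubiquitin-conjugating enzyme variant gene (PGSC0003DMG400022225) had 1256, 1326 and 953 normalized reads on day 10, against 3090, 2785 and 3357 on day 0 (log2 change -1.39 ± 0.18, SE, adjusted p = 6.4e-04, limma). The day 0 means of these genes were 3.13-fold and 2.61-fold those of day 10, with no overlap between the days. For the enzyme variant gene, the study lists a fatty acid desaturase as the Arabidopsis homologue.

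Among the genes followed up by the study 4 did not pass the test, and all of them had been selected in Tajfun. A gene of nsLTP, the small lipid transfer proteins of the cell wall, had 575, 1112 and 520 normalized reads on day 10, against 768, 593 and 1034 on day 0 (log2 change -0.17, 95% interval -0.94 to 0.61). The organic cation transporter gene had 1010, 1508 and 1186 normalized reads on day 10, against 1174, 1036 and 1019 on day 0 (log2 change 0.18, 95% interval -0.27 to 0.64). The armadillo repeat gene had 596, 553 and 503 normalized reads on day 10, against 452, 525 and 481 on day 0 (log2 change 0.18, 95% interval -0.25 to 0.61). In these genes the values of the days overlapped. The nucleotide binding protein gene had 71.6, 115 and 21.3 normalized reads on day 10, against 16.8, 20.8 and 13.0 on day 0, with a log2 change of 1.71 ± 0.67 (SE, adjusted p = 0.072, limma). Its days did not overlap, and without day 10 library c it passed the test (log2 change 2.40, adjusted p = 0.013, limma).

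By list, all 9 genes selected in Gwiazda passed the test, 6 upward and 3 downward. The study had chosen these genes on the same libraries, so their count is not independent evidence. Of the 15 genes selected in Tajfun, 8 rose, 3 fell and 4 did not pass, with a median log2 change of 1.39. CAP160 belongs to both lists. Among all genes tested, 20% rose and 23% fell. The longer lists for which the study designed primers were in part unnamed. All 33 genes of the list made for Gwiazda passed, 13 upward and 20 downward. The study had selected genes for RT-PCR by a change under drought in these Gwiazda libraries, so this count is not independent evidence either. Of the 56 genes of the list made for Tajfun, 55 could be tested, 23 rose (41.8%), 11 fell (20%) and 21 did not pass, with a median log2 change of 0.69.

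None of the 8 genes that the study chose as stable passed the test, which their choice in part fixes, and the days overlapped for each of them. Their log2 changes ran between -0.19 and 0.06 with a median of -0.09. Hyoscyamine 6-dioxygenase (PGSC0003DMG400027423) had 3088, 2941 and 2772 normalized reads on day 10, against 3008, 2851 and 3554 on day 0 (log2 change -0.09, 95% interval -0.45 to 0.27). TFIIB (PGSC0003DMG400014907), a general transcription factor, had 1093, 1617 and 1067 normalized reads on day 10, against 1017, 1572 and 1069 on day 0 (log2 change 0.05, 95% interval -0.52 to 0.62). The interval of EMB2756 reached down to -0.73, and that of the Golgi SNARE 11 gene reached up to 0.64. Changes of up to about that size in these genes were thus not excluded with 3 libraries on each day.

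Cyclophilin, the RT-PCR control, was higher on day 10. It had 44694, 52406 and 34201 normalized reads on day 10, against 19817, 10122 and 25346 on day 0. The mean was 2.38-fold higher on day 10, and the log2 change was 1.33 ± 0.34 (SE, adjusted p = 0.016, limma), with no overlap between the days. Without day 10 library a or b the adjusted p was 0.051 or 0.055. Cyclophilins form a gene family, and whether reads that fit several members bear on these values was not tested. In Oberon the same gene rose by 1.24 ± 0.31 on the log2 scale (SE, adjusted p = 0.024, limma).

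The second comparison asked what changed in Gwiazda between day 6 and day 10. Of 18477 genes tested, 1993 were higher and 1695 lower on day 10 than on day 6 at an adjusted p below 0.05, 10.8% and 9.17% of the genes tested and 20% together. These counts were sensitive to single day 10 libraries: without library a, 943 genes rose and 819 fell, without b, 1083 and 978, and without c, 1030 and 855. Values of the 3 days below were scaled over the 17 libraries of Gwiazda and Oberon and therefore differ a little from those above, and the comparisons with day 6 and with day 0 share the day 10 libraries.

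CAP160 and the phospholipase C gene fell between day 6 and day 10, while RAB18, alcohol dehydrogenase and MAPKKK15 did not pass the test. CAP160 had 85.3, 76.3 and 378 normalized reads on day 0, 46940, 33576 and 21246 on day 6 and 7084, 6533 and 8251 on day 10. It fell from day 6 to day 10 by 2.15 ± 0.29 on the log2 scale (SE, adjusted p = 0.0028, limma), while its day 10 level remained above that of day 0. The phospholipase C gene had 34.5, 14.9 and 66.8 normalized reads on day 0, 715, 839 and 388 on day 6 and 265, 246 and 313 on day 10. It fell by 1.17 ± 0.31 on the log2 scale after day 6 (SE, adjusted p = 0.037, limma), but the call was lost without any 1 of the libraries other than day 6 library c. RAB18 had 74.4, 31.6 and 146 normalized reads on day 0, 1853, 3437 and 905 on day 6 and 817, 902 and 1288 on day 10. The day 6 and day 10 values overlapped, and the log2 change was -0.87 ± 0.45 (SE, adjusted p = 0.21, limma). Without day 6 library c the change was -1.36 (adjusted p = 0.033, limma). Alcohol dehydrogenase had 0, 0 and 54.3 normalized reads on day 0, 859, 1918 and 446 on day 6 and 327, 303 and 286 on day 10, with an adjusted p of 0.052 for the change from day 6 (log2 change -1.56 ± 0.47, SE, limma), and without day 6 library c the adjusted p was 0.012. For MAPKKK15 the values were 1.82, 1.86 and 43.9 on day 0, 291, 145 and 148 on day 6 and 231, 183 and 330 on day 10, and the change after day 6 was 0.38 ± 0.37 (SE, adjusted p = 0.50, limma).

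**Figure D3:**
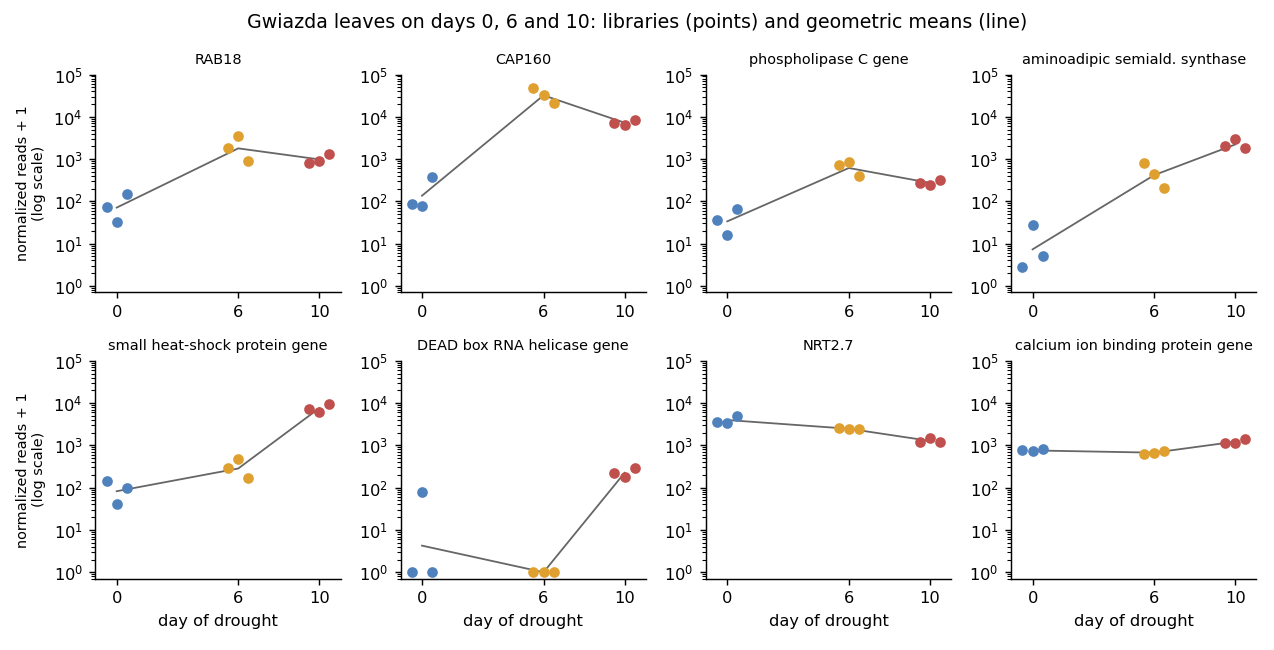
Each panel shows 1 gene in the Gwiazda libraries of days 0, 6 and 10 (horizontal axis, days to scale) as normalized reads plus 1 on a log scale, with a line through the geometric means. CAP160 and the phospholipase C gene were highest on day 6, aminoadipic semialdehyde synthase, the small heat-shock protein gene and the DEAD box RNA helicase gene were highest on day 10, and NRT2.7 was lowest on day 10.

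The heat-shock protein gene, the DEAD box RNA helicase gene, aminoadipic semialdehyde synthase and the calcium ion binding protein gene rose between day 6 and day 10, and NRT2.7 fell. The low molecular weight heat-shock protein gene had 140, 39.1 and 98.2 normalized reads on day 0, 289, 465 and 169 on day 6 and 7144, 6315 and 9683 on day 10. Its change from day 6 to day 10 was 4.74 ± 0.36 on the log2 scale (SE, adjusted p = 3.3e-04, limma). The DEAD box RNA helicase gene had 0, 76.3 and 0 normalized reads on day 0, none in any day 6 library and 222, 177 and 286 on day 10 (adjusted p = 5.8e-04 for day 10 against day 6, limma, and 0.052 with a minimum mean of 100 reads). Reads of this gene were thus found in all 3 libraries only on day 10. Aminoadipic semialdehyde synthase had 1.82, 26.0 and 4.18 normalized reads on day 0, 793, 436 and 209 on day 6 and 2009, 3026 and 1788 on day 10, a rise of 2.41 ± 0.46 after day 6 (SE, adjusted p = 0.011, limma) that followed a larger one of 5.86 by day 6 (adjusted p = 0.0058, limma). NRT2.7 had 3648, 3466 and 4972 normalized reads on day 0, 2556, 2387 and 2482 on day 6 and 1174, 1511 and 1174 on day 10, a fall by 0.95 ± 0.17 on the log2 scale (SE, adjusted p = 0.0087, limma). The calcium ion binding protein gene had 761, 719 and 799 normalized reads on day 0, 621, 648 and 755 on day 6 and 1114, 1146 and 1430 on day 10, with a rise of 0.86 ± 0.19 after day 6 (SE, adjusted p = 0.018, limma) that was lost without day 10 library a (adjusted p = 0.052) or c (adjusted p = 0.067), or without day 6 library a (adjusted p = 0.052).

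Of the unnamed genes, the one with most reads on day 10 had 8981, 8543 and 4714 normalized reads on day 6 and gained 6.31 ± 0.34 on the log2 scale by day 10 (SE, adjusted p = 1.2e-04, limma). PGSC0003DMG400009255 had 11.3, 88.0 and 2.09 normalized reads on day 6, and its change to day 10 was 9.56 ± 1.05 (SE, adjusted p = 0.0013, limma). PGSC0003DMG400024476 had 159, 354 and 45.9 normalized reads on day 6, and its change to day 10 was 6.71 ± 0.67 (SE, adjusted p = 9.4e-04, limma). For these genes most of the rise by day 10 came after day 6.

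The third comparison asked whether the response of Gwiazda differed from that of Oberon, the sensitive relative. It used 11 libraries, as only 2 Oberon libraries of day 10 entered the deposited means, and no library was shared between the responses of the cultivars. The change by day 10 differed between the cultivars for 45 of 19315 genes, 0.233% of the genes tested, at an adjusted p below 0.05. The change was higher in Gwiazda for 16 of them (0.0828%) and lower in Gwiazda for 29 (0.150%). At an unadjusted p below 0.05 the changes differed for 1653 genes, 8.56% of those tested. Without Gwiazda day 0 library b the genes higher in Gwiazda numbered 27, and without Oberon day 10 library a they numbered 26. Without Oberon day 0 library a the genes lower in Gwiazda numbered 19, and without Oberon day 0 library c they numbered 17. Within Oberon alone, 15.6% of the genes tested rose and 17.9% fell, 33.5% together. The error of this difference was larger than that of the Gwiazda response, with a median SE of 0.47 on the log2 scale, against 0.30 for the response of Gwiazda alone, so smaller differences were not detectable. In 28 of the 45 genes every library of at least 1 of the 4 groups was at 0 reads, and the fitted difference of such genes depends on the value added before taking logs. With voom weights in place of the trended variance, 5 genes passed.

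Among the named genes, the cytochrome P450 gene and the adenylyl cyclase-associated protein gene passed the test of this difference. The study selected the P450 gene in Tajfun and Owacja, where its listing places the gene among those lower in Tajfun under drought. It selected the adenylyl cyclase-associated protein gene and the rest of the Gwiazda list on these same libraries, for a difference from Oberon under drought. For that list the differences are thus a description and not independent evidence. The cytochrome P450 gene had 514, 662 and 748 normalized reads in Gwiazda on day 10, against 274, 242 and 213 on day 0. In Oberon it had 179 and 109 normalized reads on day 10, against 542, 553 and 559 on day 0. It thus rose in Gwiazda and fell in Oberon (log2 change -1.94 ± 0.28 in Oberon, SE, adjusted p = 0.0035, limma), and the difference of the changes was 3.36 ± 0.35 (SE, adjusted p = 0.0034, limma). This difference passed the test without any 1 of the 11 libraries. The adenylyl cyclase-associated protein gene fell in both cultivars. In Oberon it had 30.4 and 44.2 normalized reads on day 10, against 165, 229 and 146 on day 0, whereas no read was left in Gwiazda. The fitted difference was -4.84 ± 0.71 (SE, adjusted p = 0.023, limma), it was -2.11 with 8 added before taking logs in place of 1 (adjusted p = 0.23) and -5.87 with voom weights (adjusted p = 0.36), and it missed the threshold without Gwiazda day 0 library a or without any Oberon library apart from day 0 library b (adjusted p up to 0.082).

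**Figure D4:**
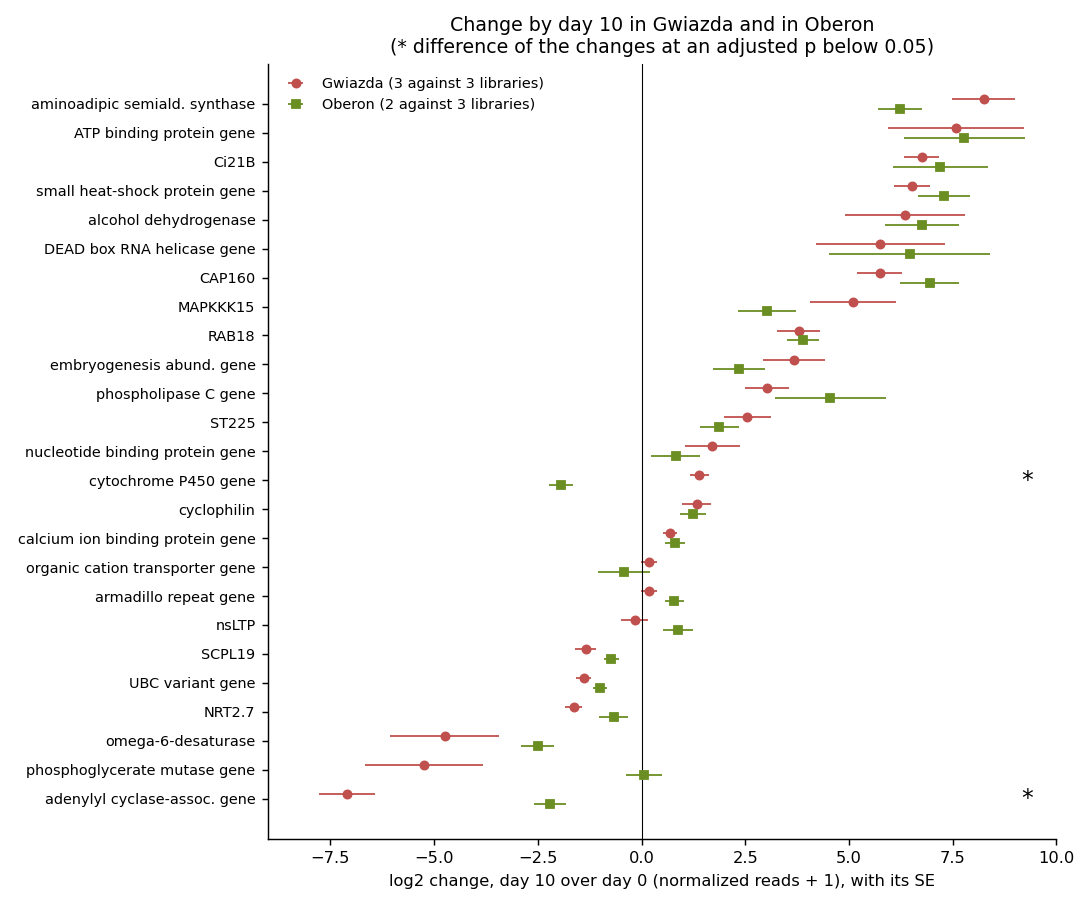
Log2 change of day 10 over day 0 with its SE for RAB18, cyclophilin and the 23 genes followed up by the study, in Gwiazda (red circles, 3 against 3 libraries) and in Oberon (green squares, 2 against 3 libraries). Stars mark the cytochrome P450 gene and the adenylyl cyclase-associated protein gene, for which the difference of the changes had an adjusted p below 0.05; the second of these genes had been selected by the study for a difference from Oberon.

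For the other named genes the difference between the cultivars did not pass. RAB18 changed by 3.79 in Gwiazda and by 3.90 ± 0.38 in Oberon (SE), and the difference of -0.08 in the joint fit had a 95% interval from -1.69 to 1.54. For CAP160 the difference was -1.18 (95% interval -3.38 to 1.01), and for the heat-shock protein gene it was -0.73 (95% interval -2.57 to 1.11). In Oberon CAP160 had 2067 and 3147 normalized reads on day 10, against 35.1, 32.7 and 6.73 on day 0. Its level was thus lower there on both days than in Gwiazda, with 7084, 6533 and 8251 on day 10 and 85.3, 76.3 and 378 on day 0. Aminoadipic semialdehyde synthase had 505 and 1294 normalized reads on day 10 in Oberon, against 8.25, 13.5 and 8.98 on day 0, and the difference between the cultivars was 2.04 ± 1.07 (SE, adjusted p = 0.66, limma). For MAPKKK15 the difference was 2.08 ± 1.44 (SE, 95% interval -1.09 to 5.25, adjusted p = 0.76, limma). These intervals are wide, and they leave room for differences of more than 2-fold in either direction for RAB18, CAP160, MAPKKK15 and the heat-shock protein gene. The phosphoglycerate mutase gene had 133 and 86.4 normalized reads on day 10 in Oberon, against 94.9, 162 and 76.3 on day 0. Its difference of -5.25 ± 1.83 did not pass (SE, adjusted p = 0.44, limma), but did so without Gwiazda day 10 library a, the only library of that day with reads of the gene (-7.13, adjusted p = 0.0018, limma).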

How the data were processed

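Per the study's methods, the authors mapped strand-specific paired reads to the PGSC potato pseudomolecules with TopHat2, estimated reads per transcript with Flux Capacitor, summed isoforms per gene and compared pairs of groups with DESeq. FastQC is also named in the submitters' processing notes, and no versions are given there. The deposited signal values are the authors' group means of normalized reads in 18 tables of 25289 genes. The tables also hold the authors' fold changes, their log2 and p-values, which were not used. No column of single samples was left unused (0).

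Each group's mean stands in 3 tables, and the 3 sums were solved for whole reads per library. The largest distance from a whole read was 9.4e-06, and the 105 size factors recomputed from the solved reads equalled those in the means within a relative 4.4e-15. Odd values made up 2.42%, so most reads were counted in pairs. Libraries of a day differed beyond sampling noise (chi-square over degrees of freedom 25.8 to 70.6, on read pairs), and none was counted as a repeat of another. P-values set a change against the spread between the libraries of a day, with variances drawn toward the trend over all genes.

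Tests used limma 3.58.1 (R 4.3.3) on log2 of normalized reads plus 1, with trended variance, genes with a mean of at least 10 over the libraries of the fit, and an adjusted p of 0.05. The 1 added before taking logs pulls changes of low genes toward 0. Where single libraries were at or near 0, the log2 change could also exceed that of the group means. For alcohol dehydrogenase it was 6.35, against 4.01 from group means scaled in other comparisons. The analysis was checked on simulated reads. Alternatives were a pseudocount of 8, no filter, a minimum mean of 100, scaling to total reads, voom weights, an adjusted p of 0.01, a 2-fold minimum, all 9 Gwiazda libraries in 1 fit, means of other tables and leaving out each library. Named were RAB18, cyclophilin, the 23 followed-up and the 8 stable genes, the 2 largest rises and falls among unnamed genes that passed, with no overlap between the days, a mean of at least 100 in the higher group and above 0 in the lower, and the gene with most reads on each day. The genes, lists and comparisons were chosen with earlier results of these data known.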

Additional observations from a re-analysis of the deposited data

Results flagged for a closer look

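The changes by day 10 in Gwiazda and in Oberon differed, by the test of the difference itself, for 2 of the 33 genes named by the study. Of all genes tested, 45 of 19315 differed (0.233%), and the study had selected its Gwiazda list for such a difference. For the cytochrome P450 gene the difference was 3.36 on the log2 scale (95% interval 2.59 to 4.14), with a rise in Gwiazda and a fall in Oberon, and it passed the test without any 1 library and with voom weights. For the adenylyl cyclase-associated protein gene it was -4.84 (95% interval -6.40 to -3.28), with a fall in both cultivars and no reads left in Gwiazda on day 10. This call was lost with 8 added before taking logs (-2.11, adjusted p = 0.23, limma), with voom weights (adjusted p = 0.36) and without any 1 of 5 libraries, and the study had selected the gene on these libraries for a difference from Oberon. Dixon's test for a single outlying value was not run, as the groups held 2 or 3 libraries.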

How the results depend on the processing

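No paired analysis was possible because the solved libraries carry no plant number. For day 10 against day 0, an adjusted p of 0.01 left 2403 genes that rose and 2924 that fell, and no other alternative moved either count by more than 1.5 times. Leaving out 1 library gave 2889 to 4007 and 3475 to 4395. Of the 27 named genes that passed, including the unnamed ones singled out, 23 also passed without any 1 library, and none changed sign in any alternative. The fibronectin type III gene changed sign when scaled to total reads (-0.0080). Among genes that did not pass, signs turned without 1 library for that gene (-0.077 to 0.17), BRE (-0.24 to 0.030), TFIIB (-0.13 to 0.23), Golgi SNARE 11 (-0.042 to 0.29), nsLTP (-0.49 to 0.056) and the BTB-POZ and MATH gene (-0.20 to 0.070).

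For day 10 against day 6, an adjusted p of 0.01 left 748 and 585 genes, and leaving out 1 library gave 943 to 2014 that rose and 819 to 1602 that fell. For the difference from Oberon, the counts higher and lower in Gwiazda were 30 and 50 without a filter, 10 and 17 with a minimum mean of 100, 2 and 3 with voom weights and 7 and 6 at an adjusted p of 0.01. Leaving out 1 library gave 12 to 27 and 17 to 40. Signs of this difference turned for RAB18 (-0.65 to 0.45) and the heat-shock protein gene (-1.62 to 0.16). The causes were not tested. The depth of each library limits low genes, and 3 libraries a day limit the rest.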
